A study of Mus musculus with 12 samples.

Results

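The accessible chromatin of 40 actin, smooth muscle and sarcomere genes was read from ATAC-seq of mouse embryonic fibroblasts on day 2 of hepatocyte reprogramming, with and without Prox1. Members were all accessible windows that overlap the body of one of these genes or the 10 kb on either side, and 507 of 176680 windows met this rule, with no window shared between genes. The genes were grouped by role into 13 smooth muscle contractile genes with 188 windows, 16 genes of the striated muscle sarcomere with 125 windows, 8 genes of the general cytoskeleton with 142 windows and 3 regulators around serum response factor (SRF) with 52 windows. The number of windows ranged from 1 at Myh1 to 42 at Filip1l and at Cald1.

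ATAC-seq marks open chromatin through the cuts that the Tn5 transposase makes in nuclei. The fibroblasts came from wild-type C57BL/6N embryos at E13.5, and all cells were transduced with a lentivirus for rtTA, the activator through which doxycycline switches on tetO promoters. Both groups compared here, 4in1_GFP_OE and 4in1_Prox1_OE, also received doxycycline and the 4in1 vector, a lentivirus with the hepatocyte-inducing transcription factors, and they differed in whether GFP or FLAG-tagged mouse Prox1 stood behind the tetO promoter of a further lentivirus. The series holds 12 libraries, 3 for each of 4 groups, and the groups MEF and Prox1_OE, without 4in1, were not analysed here. The comparison asks how Prox1, a homeodomain protein of hepatocytes that represses genes of other cell fates, changed accessibility early in reprogramming.

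The values are the authors' means over the 3 libraries of a group, in normalized reads per window, so no spread between replicates could be computed and no difference below has a test. The labels number the replicates and do not say whether these were separate embryos or cultures. The depth of each library is unknown. A difference is the log2 value of the 4in1_Prox1_OE mean minus that of the 4in1_GFP_OE mean, and a window is called lower or higher where the means differ by at least 2-fold. In bulk chromatin, fewer cells with an open site and less cutting per cell cannot be told apart, and these libraries hold no measure of transcript levels.

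Actin filaments and myosin II generate force in muscle and in fibroblasts. Smooth muscle and activated fibroblasts (myofibroblasts) use smooth muscle α-actin with the accessory proteins calponin, caldesmon and transgelin, whereas striated muscle orders sarcomeric actin, myosin, troponin, nebulin and titin into repeating units. Many of these genes are bound by SRF at the CArG box, a short sequence of A and T between CC and GG. The coactivator Mrtfa enters the nucleus when free actin monomers are scarce, and Myocd is its relative in smooth muscle and heart.

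The CArG boxes of member promoters are shown first, because they are the elements through which the actin state of a cell reaches these genes. Of the 40 genes, 34 had a promoter sequence in RefSeq (GRCm38), which runs from 250 bases before to 50 after the start site. A CArG box stood in at least 1 promoter of 7 of these 34 genes, compared with 1.63% of 32851 RefSeq promoters. The members are counted by gene, over 40 promoter sequences, and the reference by promoter, so the shares are not fully alike. Each box is printed in capitals with 10 bases on each side, read in the direction of transcription.
Actc1, chr2:114052903-114052932, reverse strand: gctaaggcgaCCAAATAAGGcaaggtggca
Myl9, chr2:156775293-156775322, forward strand: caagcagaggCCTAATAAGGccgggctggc
Acta1, chr8:123894829-123894858, reverse strand: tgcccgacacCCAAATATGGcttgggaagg
Cnn2, chr10:79988534-79988563, forward strand: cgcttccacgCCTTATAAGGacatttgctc
Vcl, chr14:20929161-20929190, forward strand: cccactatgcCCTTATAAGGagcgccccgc
Filip1l, chr16:57549170-57549199, forward strand: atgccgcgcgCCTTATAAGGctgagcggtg
Srf, chr17:46556225-46556254, reverse strand: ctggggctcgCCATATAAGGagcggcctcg
Srf, chr17:46556205-46556234, reverse strand: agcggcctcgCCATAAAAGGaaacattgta
The Srf promoter held a pair of overlapping 30-base stretches, with boxes starting 82 and 62 bases upstream of the start site. The boxes of Actc1, Cnn2 and Filip1l started 47, 56 and 62 bases upstream, that of Acta1 at 73, Myl9 at 161 and Vcl at 227. Of these boxes, only those of Myl9, Filip1l and Srf lay inside the gene's promoter peak in these data, and Acta1 had no promoter peak. Genes without a RefSeq promoter sequence were not searched in this way. The Tagln promoter peak, printed below, also held a CArG box that is not among these RefSeq hits.

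The next sequences are the 201 bases of 5 windows on which the results below turn, which are the deepest loss, the deepest loss at a regulator, a pair of smooth muscle promoters and the largest gain among windows above the median strength of all windows. Capitals mark a CArG box, the AP-1 motif (TGAGTCA or TGACTCA) or the TEAD motif (GGAATG, or CATTCC where it lies on the other strand). The coordinates are GRCm38 (mm10), and no window overlaps an annotated untranslated region.
Filip1l intron, chr16:57401817-57402017, forward strand: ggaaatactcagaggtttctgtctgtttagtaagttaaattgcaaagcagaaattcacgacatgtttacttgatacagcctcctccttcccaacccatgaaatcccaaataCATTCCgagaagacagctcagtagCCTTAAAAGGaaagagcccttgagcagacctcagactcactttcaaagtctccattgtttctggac
Mrtfa intron, chr15:81175757-81175957, reverse strand: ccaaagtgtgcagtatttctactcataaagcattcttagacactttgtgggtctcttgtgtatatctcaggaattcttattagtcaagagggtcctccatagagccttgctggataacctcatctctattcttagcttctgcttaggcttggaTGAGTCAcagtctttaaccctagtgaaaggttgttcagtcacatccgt
Tagln promoter peak, chr9:45936064-45936264, reverse strand: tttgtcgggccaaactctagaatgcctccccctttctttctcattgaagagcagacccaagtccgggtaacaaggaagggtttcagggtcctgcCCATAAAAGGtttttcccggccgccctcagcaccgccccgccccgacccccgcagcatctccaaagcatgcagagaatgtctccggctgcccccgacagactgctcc
Lmod1 promoter peak, chr1:135324604-135324804, forward strand: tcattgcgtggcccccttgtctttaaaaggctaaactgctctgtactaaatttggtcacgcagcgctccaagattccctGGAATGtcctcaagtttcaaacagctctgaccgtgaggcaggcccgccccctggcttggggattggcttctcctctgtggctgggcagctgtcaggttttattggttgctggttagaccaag
Tpm1 upstream, chr9:67058454-67058654, reverse strand: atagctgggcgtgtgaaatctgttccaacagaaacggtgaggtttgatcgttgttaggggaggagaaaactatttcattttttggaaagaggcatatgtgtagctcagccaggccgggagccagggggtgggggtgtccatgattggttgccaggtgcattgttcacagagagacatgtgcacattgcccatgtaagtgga
The Tagln promoter peak holds 1 CArG box, and the Tpm1 window holds none of these 3 motifs.

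Across all 176680 windows the median log2 difference was -0.42, so the typical window was already lower with Prox1. The 507 member windows had a median of -0.60, with quartiles of -1.03 and -0.12. Among them 135 (26.6%) were lower by at least 2-fold, beside 24.4% of all windows, and 22 (4.34%) were higher, beside 8.33%. Among the 117388 windows within 10 kb of any protein-coding gene, the class the members were drawn from, 21.8% were lower and 7.51% higher, with a median of -0.36. The share of losses at the members lay near both references, and the share of gains was lower than both. Relative to the all-window median, 38 member windows (7.50%) lay at least 2-fold below, beside 8.64% of all windows, and 39 (7.69%) lay at least 2-fold above, beside 13.4%, so the order of the loss shares depended on where 0 was set.

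Member windows were on average more accessible than others, with a median mean concentration of 7.11 on the log2 scale against 6.71, and this bears on the counts because weak windows gained more often. Of all windows weighted to the members' strength, 25.4% were lower and 5.91% higher. In 10 of 10 deciles by strength the member median lay below the median of all windows, and the difference between these medians ran from -0.28 to -0.0078. Of the 135 losses, 93 (68.9%) were at windows above the median strength of all windows, as were 62.7% of all member windows. Of the 22 gains, 19 were at or below it, where few reads support a group mean.

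**Figure D1:**
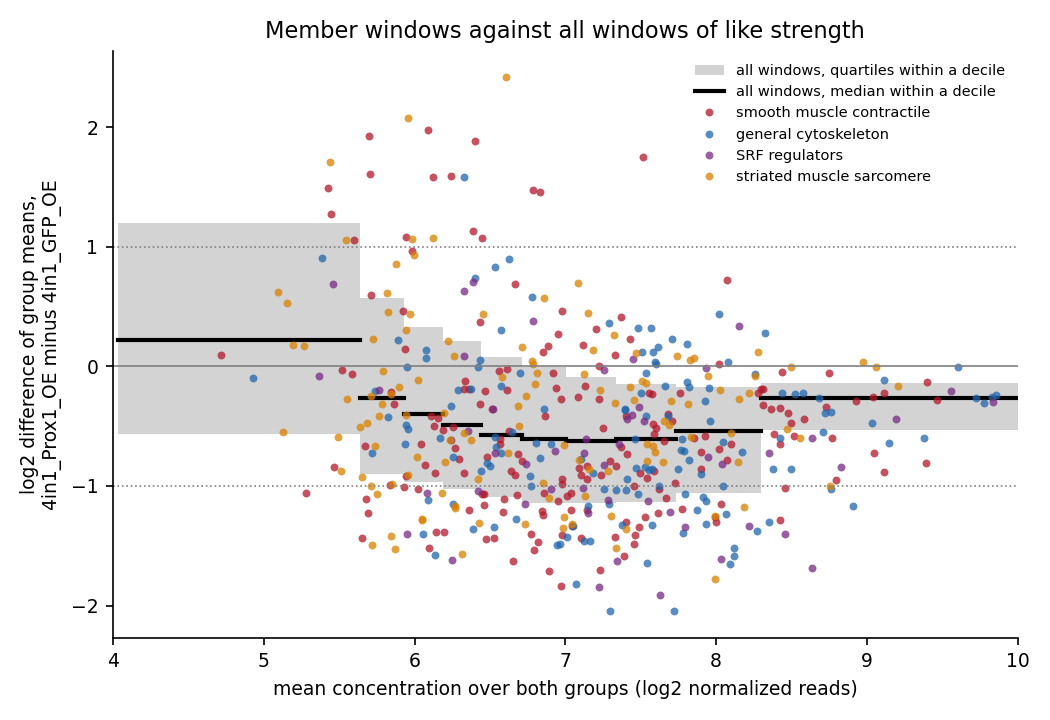
Each point is 1 of the 507 member windows, by its mean concentration over both groups (x axis, log2 normalized reads) and its log2 difference, 4in1_Prox1_OE minus 4in1_GFP_OE (y axis), coloured by the role of the gene. Grey boxes span the quartiles and black bars the median of all windows in each decile by strength, dotted lines mark 2-fold, and the points at or above 1 sit mainly at the weak end.

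The 387 windows inside the gene bodies had a median of -0.67 with 117 lower and 13 higher, while the 53 upstream windows had a median of -0.24 with 8 lower and 7 higher and the 67 downstream windows a median of -0.29 with 10 lower and 2 higher. Around all protein-coding genes, counting a window once for each gene it belonged to, 22.2% of body windows were lower and 7.47% higher (median -0.37), beside 30.2% and 3.36% of the member body windows. For upstream windows the shares were 16.9% and 5.76% (median -0.28), beside 15.1% and 13.2% of the members' own, and for downstream windows 13.7% and 6.08% (median -0.23), beside 14.9% and 2.99%. Intronic member windows were the lowest class, with 104 of 321 lower (32.4%) and a median of -0.72, beside 27.2% and -0.52 for all intronic windows. Of the 428 member windows outside promoters, 125 (29.2%) were lower, beside 26.7% of all windows outside promoters, and 19 (4.44%) were higher, beside 9.08%. Most of the lower windows at these genes, 104 of 135, were thus intronic and over 1 kb from a start site.

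The 4 roles differed in their medians. The SRF regulators had the lowest, at -0.72, with 19 of 52 windows lower (36.5%) and 0 higher. Smooth muscle contractile genes had a median of -0.63 with 52 of 188 lower (27.7%) and 15 higher (7.98%), shares near the 24.4% and 8.33% of all windows. General cytoskeleton genes had a median of -0.62 with 40 of 142 lower (28.2%), also near that share, and 1 higher. Sarcomere genes had the highest median, -0.33, with 24 of 125 lower (19.2%) and 6 higher. This lay above the -0.42 of all windows. In gene bodies alone the sarcomere median was -0.48, beside -0.37 for the body windows of all protein-coding genes, and without the weakest 25% of windows it was -0.42, beside -0.49 for all windows filtered alike. Because the all-window median was below 0, the sarcomere median turned positive (0.086) when that median was set to 0, while the other 3 stayed negative. The counts of lower and higher windows then became 14 and 19 for smooth muscle contractile genes, 13 and 6 for general cytoskeleton genes, 6 and 3 for SRF regulators and 5 and 11 for sarcomere genes, so the balance turned for smooth muscle and sarcomere genes.

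At 29 of the 40 genes at least 1 window was lower by 2-fold, at 14 at least 1 was higher, and at 11 no window passed 2-fold either way. Among 18464 protein-coding genes with a window, weighted to the members' numbers of windows, 67.4% had a lower and 44.3% a higher window, where 29 of 40 is 72.5%. The median over a gene's windows was below 0 at 39 genes, the exception being Actc1 (cardiac α-actin) at 0.02, and below the all-window median at 21.

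**Figure D2:**
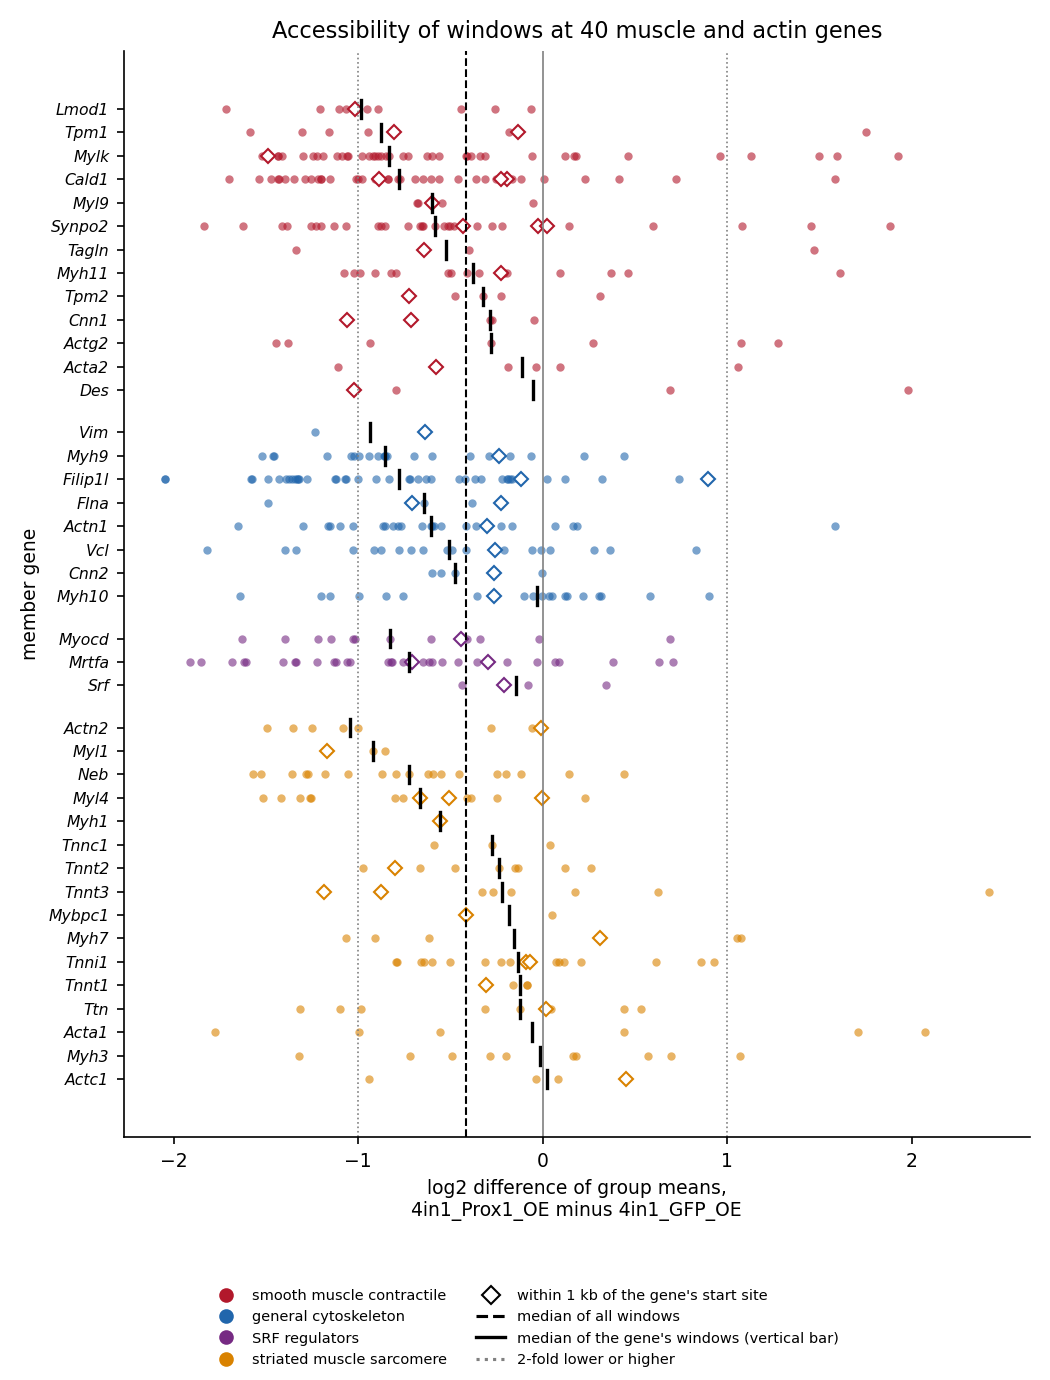
Every member window by gene, with the log2 difference of the group means (4in1_Prox1_OE minus 4in1_GFP_OE) on the x axis. Diamonds are windows within 1 kb of the gene's own start sites, black bars the gene medians, the dashed line the median of all windows (-0.42), and dotted lines 2-fold. Most gene bars of the general cytoskeleton genes and SRF regulators lie left of the dashed line. Those of the smooth muscle contractile and sarcomere genes lie on both sides, with most sarcomere bars to the right.

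Among smooth muscle contractile genes, Lmod1 had the lowest median. Lmod1 encodes leiomodin 1, an actin filament nucleator of smooth muscle, and 5 of its 10 windows were lower, with a median of -0.99 and none above 0. Its promoter peak, printed above, went from 469 normalized reads with GFP to 232 with Prox1, a difference of -1.02. This was a strong window, in the top decile of all windows, at percentile 9.38 of the differences within that decile. It held the TEAD motif and no match to the CArG box.

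Cald1, which encodes the actin- and myosin-binding caldesmon, had 14 lower windows and 1 higher window among 42. The Cald1 promoter peak, at chr6:34598332-34598532, was at 720 reads with GFP and 390 with Prox1, a difference of -0.89 that stopped just short of 2-fold. The lowest Cald1 window was intronic, at chr6:34619985-34620185, with 229 and 70.5 reads (-1.70). One strong intronic window of Cald1, at chr6:34633855-34634055, went the other way with 204 and 335 reads (0.72), at percentile 99.0 of its decile by strength.

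Mylk, the kinase that starts smooth muscle contraction by phosphorylating myosin light chain, had the most higher windows of any member. Of its 41 windows, 13 were lower and 4 were higher, with a median of -0.83. The peak at the start of the transcript in the basic annotation, chr16:34784772-34784972, was at 259 reads with GFP and 92.3 with Prox1. This was the largest promoter difference of the 40 genes, -1.49, and the window held both the AP-1 and the TEAD motif. A stronger peak at the upstream start of the gene, chr16:34745079-34745279, was at 438 and 421 reads, a difference of -0.06. Its transcript is listed only in the full annotation, so the call for the Mylk promoter depends on which start site is read.

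The promoter peaks of 7 further smooth muscle contractile genes had a lower mean with Prox1 without passing 2-fold, where 82.0% of all promoter peaks were below 0. Tagln, which encodes the actin-binding protein transgelin, was at 419 reads with GFP and 268 with Prox1 (-0.65) at the promoter peak with the CArG box printed above. The promoter peak of Acta2, smooth muscle α-actin, was at 438 and 293 (-0.58). For Cnn1, calponin 1, the values were 296 and 180 (-0.72), and a second window within 1 kb of a Cnn1 start site, with a CArG box, was at 178 and 85.2 (-1.06). Myl9, the regulatory light chain that Mylk phosphorylates, had 527 and 347 reads (-0.60) at its peak with the CArG box, and Tpm2, β-tropomyosin, had 659 and 399 (-0.72). Myh11, the heavy chain of smooth muscle myosin, differed little at its promoter, with 233 and 200 reads (-0.22), and its gene median of -0.38 was above that of all windows.

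Des, desmin, the intermediate filament protein of muscle, was lower at its promoter peak, at 264 reads with GFP and 130 with Prox1 (-1.02). About 5 kb upstream of the Des start site, the window at chr1:75354742-75354942 was at 27.6 reads with GFP and 109 with Prox1 (1.98), so the locus held a loss and a gain side by side. Acta2 and Tagln also each held a lower and a higher window. The window upstream of Acta2 at chr19:34262654-34262854 was at 132 and 61.2 reads (-1.11) and one downstream at chr19:34232860-34233060 at 31.5 and 65.6 (1.06). Within their deciles by strength these Acta2 windows lay at percentiles 24.3 and 72.1. The higher one lies inside a neighbouring gene and in the weakest decile, where 29.2% of all windows were higher. At Tagln, an intronic window of a neighbouring gene with a CArG box, chr9:45919922-45920122, was at 189 and 74.7 (-1.34), while one at chr9:45944502-45944702 was at 58.4 and 162 (1.47).

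Actg2, the γ-actin of enteric smooth muscle, had no promoter peak, and its 7 windows split into 2 lower, 2 higher and 3 in between. Synpo2, a Z-disc and actin-bundling protein, had nearly equal promoter means, 257 and 261 reads (0.02), and 9 lower and 3 higher windows among 33. The Synpo2 window at chr3:123150667-123150867, with AP-1, was at 196 and 55.0 reads (-1.84), and that at chr3:123139790-123139990, with an E-box (CAGCTG), at 61.0 and 167 (1.45). Tpm1, α-tropomyosin, had 704 and 643 reads at its promoter (-0.13), 3 lower windows inside or just past the gene, and the largest strong gain of all members upstream. That window, printed above, was at 83.6 reads with GFP and 281 with Prox1 (1.75), at percentile 99.9 of its decile.

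**Figure D3:**
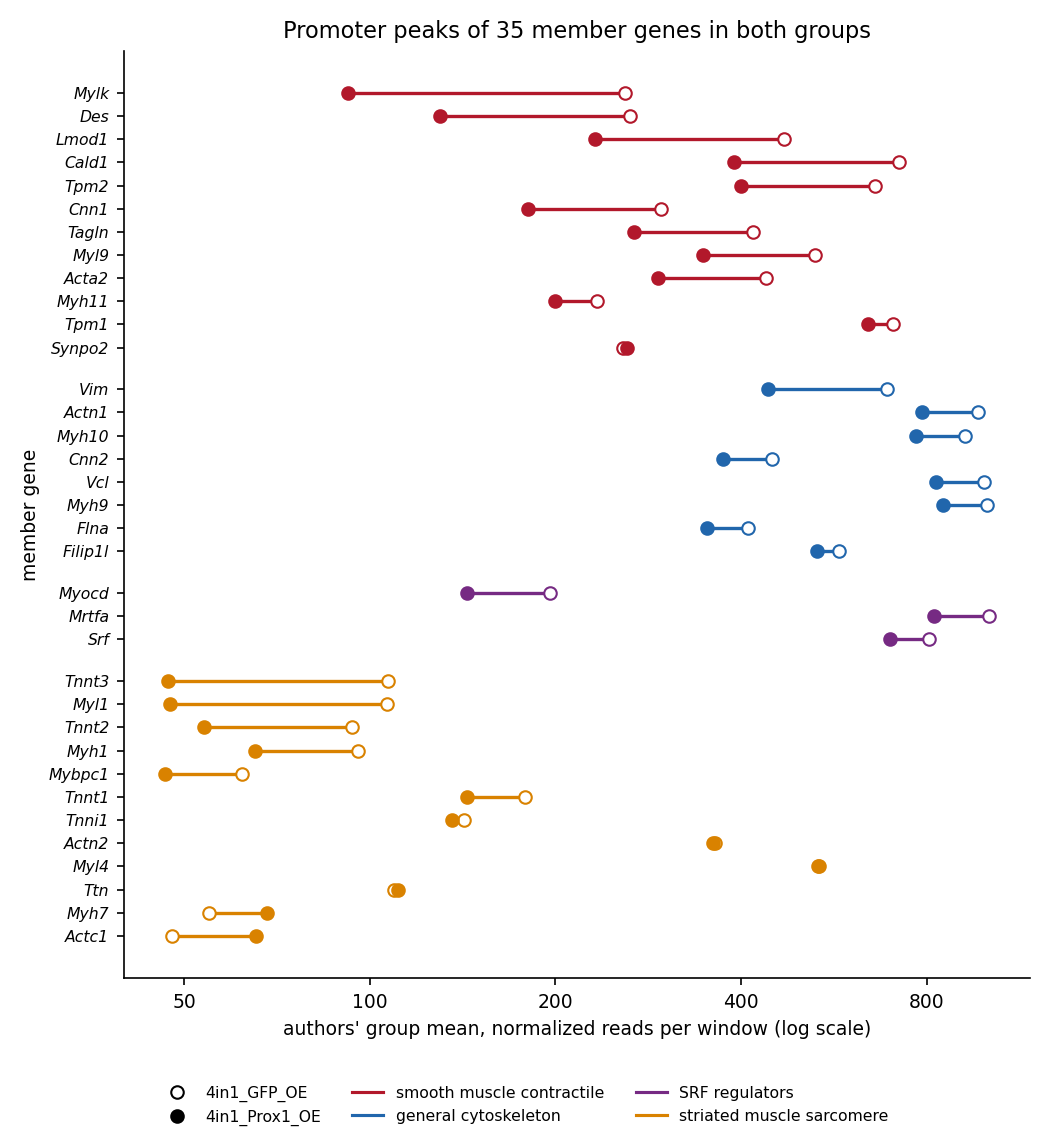
Promoter peaks of the 35 genes that have one, as the authors' group means in normalized reads per window (x axis, log scale), with open circles for 4in1_GFP_OE and filled circles for 4in1_Prox1_OE. Filled circles lie left of open circles at 31 genes (88.6%, beside 82.0% of all promoter peaks), with the longest bar at Mylk (259 to 92.3 reads), and right of them at Ttn, Synpo2, Myh7 and Actc1.

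A promoter peak, the most accessible window within 1 kb of a start site, was present at 35 of the 40 genes and missing at Acta1, Actg2, Myh3, Neb and Tnnc1. Of the 35 peaks, 5 (14.3%) were lower, at Mylk, Tnnt3, Myl1, Des and Lmod1, beside 2.86% of 13970 promoter peaks of protein-coding genes. No member peak was higher, beside 1.25%. The median was -0.30, compared with -0.19 for all promoter peaks, which was below the median of promoters in general and above that of all windows. Member peaks and all promoter peaks were not matched for strength, with median mean concentrations of 8.45 and 8.91. Within their deciles by strength the 5 lower peaks lay at percentiles 9.74, 17.7, 18.2, 30.3 and 9.38, in the order named. The peaks of Tnnt3, Myl1 and Des were centred -831, 882 and -688 bases from the nearest start site. The 12 smooth muscle contractile promoters had 3 lower, a median of -0.68 and 9 below the all-window median. The 12 sarcomere promoters had 2 lower and a median of -0.19, the 8 cytoskeleton promoters 0 lower and -0.26, and the 3 promoters of SRF regulators 0 lower and -0.29. Nearest to the threshold were Lmod1 at -1.02 inside and Cald1 at -0.89 outside. With all-window centring 1 of the 35 promoter peaks, that of Mylk, stayed past 2-fold (2.86%), and the median of the 35 became 0.11. Of the promoter peaks of all protein-coding genes, 0.623% were then lower and 3.46% higher, with a median of 0.22. With the start sites of all annotated transcripts, Mylk (-0.06) left the lower promoters and Neb (-1.06) joined them, which left Des and Lmod1 of the smooth muscle role against Tnnt3, Myl1 and Neb of the sarcomere.

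General cytoskeleton genes had strong promoters, none past 2-fold, and 39 of 125 windows outside promoters lower (31.2%, beside 26.7% of all such windows). Filip1l alone gave 19 of these 39, from 40 windows outside promoters. The promoters of Myh9 and Vcl, with that of Mrtfa, were the 3 strongest member windows. Myh9, the heavy chain of non-muscle myosin IIA, was at 1001 reads with GFP and 849 with Prox1 at its promoter (-0.24), while 6 of its 23 windows were lower and its gene median was -0.85. Vcl, vinculin, which links integrin adhesions to actin, was at 991 and 829 at its promoter (-0.26), and its intronic window with AP-1 at chr14:20947462-20947662 was at 209 and 59.3 (-1.82). Actn1, the α-actinin of stress fibres, had 969 and 785 reads at its promoter (-0.30) and 6 lower windows among 25. Flna, the actin cross-linker filamin A, had 411 and 352 (-0.22), and Cnn2, calponin 2, 449 and 374 (-0.26). A weaker window at another Flna start site, chrX:74249727-74249927, with a CArG box, was at 274 and 168 (-0.71).

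Vim, vimentin, the intermediate filament protein of fibroblasts, had only 2 windows. Its promoter peak was at 688 and 442 reads (-0.64), the lowest promoter difference among the cytoskeleton genes, and the gene median was -0.94. Myh10, the non-muscle myosin IIB heavy chain, was the other extreme of this group, with 923 and 768 reads at the promoter (-0.27) and a gene median of -0.03, 3 of its 20 windows being lower.

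Filip1l had the most lower windows of any member, 19 of 42, and the deepest losses, while its promoter peak differed little, at 577 reads with GFP and 532 with Prox1 (-0.12). Its intronic window with a CArG box and a TEAD motif, printed above, was at 254 and 61.4 reads (-2.05). A second one at chr16:57433828-57434028, with AP-1, was at 340 and 82.4 (-2.05). Their differences were at percentiles 0.334 and 0.351 of the windows in their decile by strength. All 42 Filip1l windows also lie inside the gene body of Cmss1, so these data cannot assign them to 1 of the overlapping genes.

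**Figure D4:**
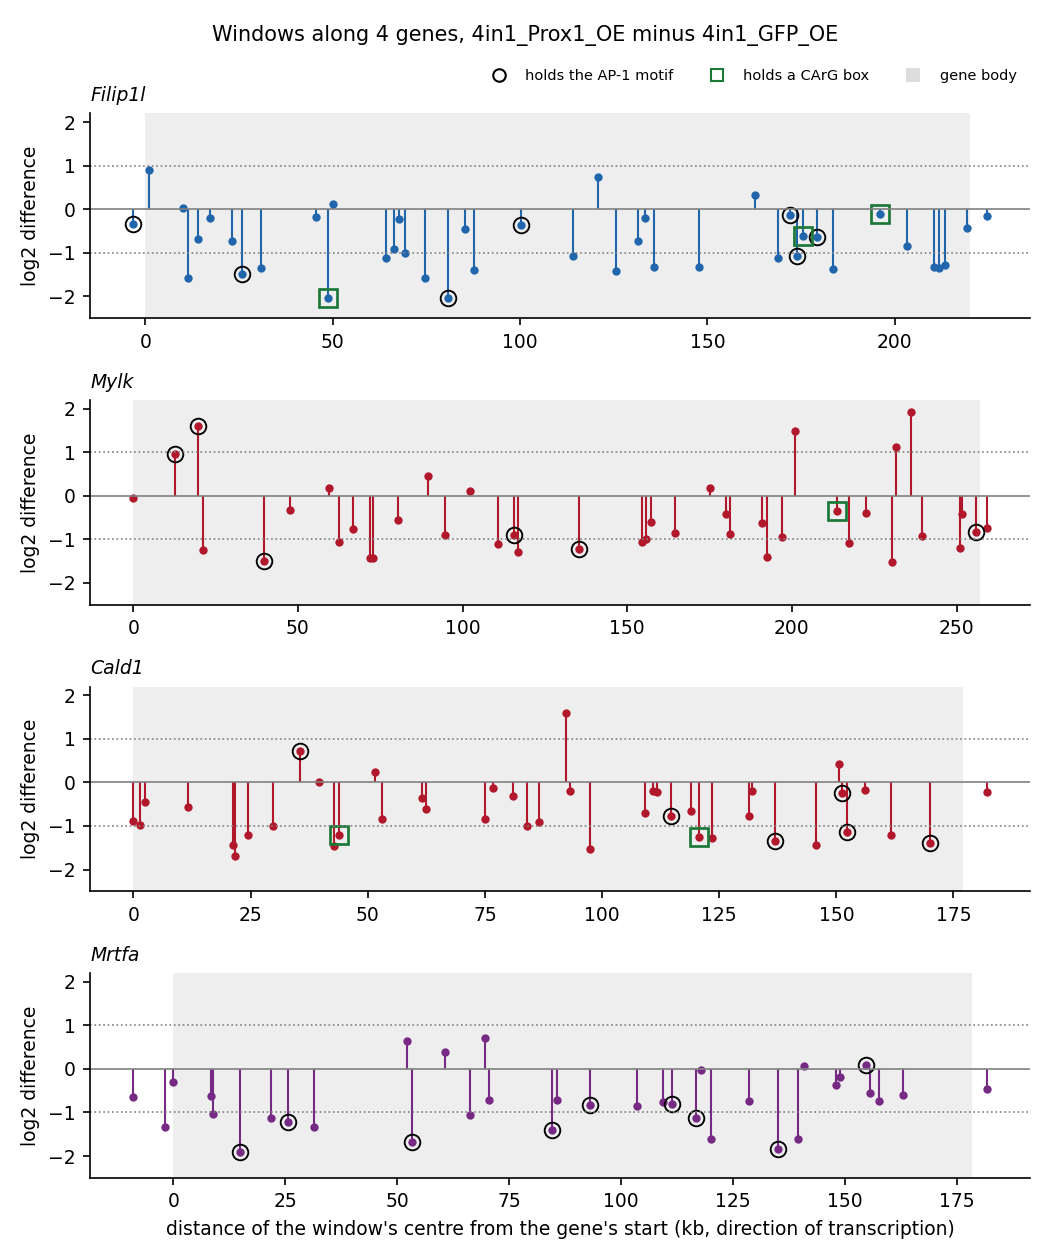
Log2 differences (y axis, 4in1_Prox1_OE minus 4in1_GFP_OE) of the windows along Filip1l, Mylk, Cald1 and Mrtfa by distance from the gene's start in kb (x axis). Grey marks the gene body, circles the AP-1 motif and squares the CArG box, and windows past -1 are spread along all 4 genes, with 4 gains past 1 at Mylk.

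The SRF regulators had 19 of 46 windows outside promoters lower (41.3%, beside 26.7% of all such windows) and 0 higher (beside 9.08%), and none of their promoter peaks passed 2-fold. Mrtfa, the actin-sensing coactivator, was at 1008 reads with GFP and 822 with Prox1 at its promoter (-0.29), while 13 of its 35 windows were lower. The Mrtfa intron window printed above was at 313 and 83.2 (-1.91), and the next, at chr15:81055548-81055748 with AP-1 and TEAD motifs, at 233 and 64.8 (-1.85). Myocd, the coactivator of smooth muscle and heart, had 6 of 13 windows lower and a gene median of -0.83, with a promoter peak at 196 and 144 (-0.44). Its upstream window at chr11:65275545-65275745, with AP-1 and TEAD motifs, was at 245 and 79.4 (-1.63). Srf itself had no window past 2-fold, and its promoter peak with the pair of CArG boxes was at 807 and 698 (-0.21).

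Sarcomere promoters were weak, between 47.8 and 178 reads with GFP, with the exception of Myl4 and Actn2. Myl4, an atrial and embryonic myosin light chain, was at 535 reads with GFP and 533 with Prox1, at a window that also lies within 1 kb of the start site of another gene. Actn2, the α-actinin of the Z-disc, was at 363 and 360 at its promoter (-0.01), though 5 of its 8 windows were lower and its gene median of -1.04 was the lowest of all 40. The promoter peaks of Tnnt3 and Myl1, a fast troponin T and a fast myosin light chain, were at 107 and 47.1 (-1.18) and at 107 and 47.4 (-1.17). Tnnt2, cardiac troponin T, was at 93.7 and 53.9 (-0.80) and Myh1, a fast myosin heavy chain with 1 window in all, at 95.8 and 65.1 (-0.56).

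Ttn, titin, the spring of the sarcomere, had 110 and 111 reads at its promoter peak, and 2 of its 9 windows were lower. Neb, nebulin, the ruler of the thin filament, had no promoter peak in the basic annotation, and 7 of its 19 windows were lower with a median of -0.73. The highest promoter differences of all members, both short of 2-fold, were those of a pair of cardiac genes. Myh7, the slow and cardiac myosin heavy chain, was at 55.0 and 68.0 (0.31), and Actc1 at 47.8 and 65.4 (0.45). Mybpc1, Tnnt1 and Tnni1, genes of slow muscle fibres, were at -0.41, -0.31 and -0.07 at their promoters, and none of the 18 Tnni1 windows passed 2-fold. Myh3, the embryonic myosin heavy chain, had a median of -0.02 over 10 windows with 1 lower and 1 higher, and Tnnc1, the troponin C of slow and cardiac muscle, 3 windows with a median of -0.27.

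Acta1, skeletal α-actin, had the widest spread of any small locus. Its 6 windows ran from -1.78, at chr8:123888077-123888277 with 395 and 115 reads, to 2.07, at chr8:123902754-123902954 with 23.9 and 100 reads. All 6 lie inside the body of a neighbouring gene. The largest gain of all 507 windows, 2.42, was at chr7:142506056-142506256 near Tnnt3, with 30.8 and 164 reads, and it lies within 1 kb of the start site of a gene outside the list. Of all member windows, 122 lie inside the body of a gene outside the list and 35 within 1 kb of such a gene's start site.

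Sequence motifs were counted in the windows, on both strands. A CArG box was found in 21 member windows (4.14%) at 14 genes, compared with 1.13% of all windows. Of these 21, 9 (42.9%) were lower and 0 higher, beside 32.5% and 8.53% of all windows with a CArG box, and the median was -0.86, against -0.57 for the member windows without one and -0.60 for all windows that hold one. The 12 of them outside promoters had a median of -1.09, with 7 lower, where all such windows had a median of -0.63 with 34.0% lower. The 9 in promoters had a median of -0.60, with 2 lower, where all such windows had a median of -0.29 with 15.9% lower. The lowest was the Filip1l window above, and the only one above 0 was an exonic Vcl window at 137 and 176 reads (0.37).

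The AP-1 motif, the binding sequence of Fos and Jun dimers, stood in 19.9% of member windows, beside 23.0% of all windows. Of the members with it 43 (42.6%) were lower and 1 was higher, beside 40.8% and 5.29% of all windows with it, and their median of -0.92 compared with -0.46 for member windows without the motif. All windows with AP-1 showed nearly the same, with a median of -0.84. The TEAD motif, bound by the partners of the YAP coactivator, was in 110 member windows (21.7%, beside 20.1% of all windows) with 41 lower (37.3%) and 1 higher, beside 32.5% and 7.78% of all windows with it. The median was -0.79, against -0.64. The 17 member windows with both AP-1 and TEAD had a median of -1.22 with 11 lower, and all windows with both had a median of -0.90 with 44.5% lower. The 313 with neither had a median of -0.42 with 62 lower and 20 of the 22 gains, and all windows with neither a median of -0.27 with 17.0% lower and 9.39% higher. The lower level of windows with these motifs was thus shared by windows across the genome. Of the 6 largest falls among strong windows, 5 held AP-1, and none of the 3 strong windows higher by at least 2-fold held AP-1, TEAD or the CArG box.

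**Figure D5:**
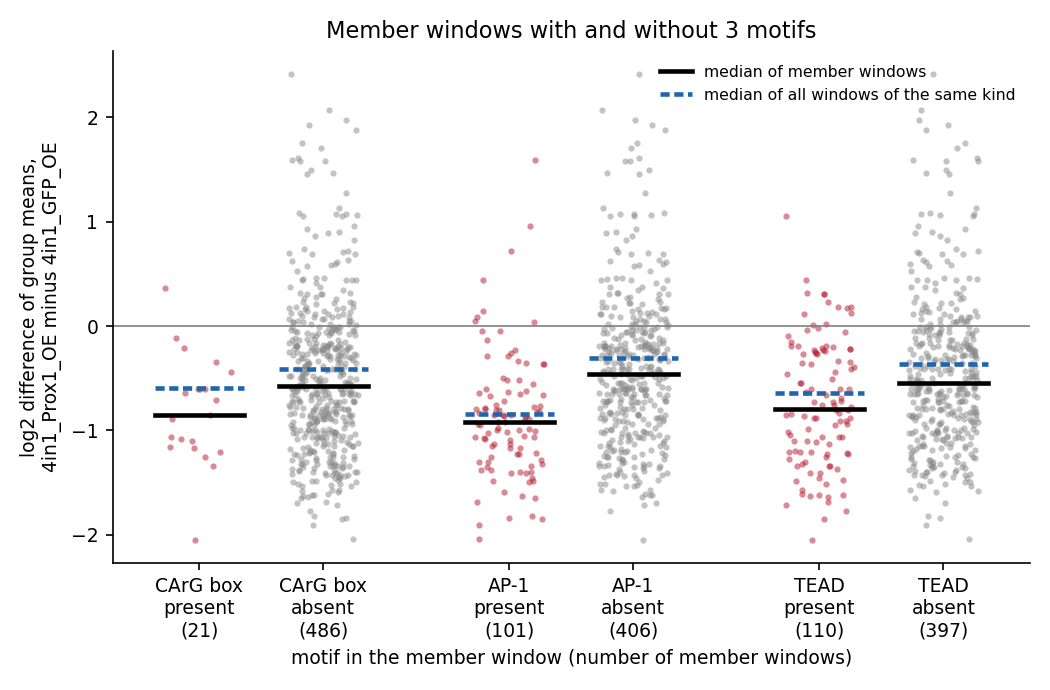
Log2 differences (y axis) of member windows with (red) and without (grey) the CArG box, AP-1 and TEAD motifs, with the number of windows in parentheses and random horizontal jitter. Black bars are member medians and dashed blue bars the medians of all windows of the same kind, and the windows with a motif have the lower median for each motif, in members and in all windows.

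The E-box CAGCTG, which MyoD-like factors bind, was in 96 member windows (18.9%, beside 15.9% of all windows) with a median of -0.55, and the MEF2 motif was in 3. In RefSeq promoters TEAD was found at 15 of the 34 genes, beside 14.7% of all promoters, the E-box at 10 of 34, beside 16.3%, and AP-1 at Cald1 and Mylk alone, beside 5.20%. Here too members were counted by gene and the reference by promoter. A match is a description of the sequence and not a measurement of binding.

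The other genes of the actomyosin system gave a comparison. Of 97 listed, 78 had a promoter peak, on 77 windows because Myl12a and Myl12b share one. Of these genes, 3 were lower (3.85%) and 4 higher (5.13%), beside 2.86% and 1.25% of all promoter peaks. The median was -0.21, close to the -0.19 of all promoter peaks. In 2 of the 4 roles they did not follow the members. The 19 further smooth muscle contractile promoters had a median of -0.16 with 1 lower, against -0.68 for the member promoters. The 18 further sarcomere promoters had a median of -0.42 with 2 lower and 2 higher, against -0.19. General cytoskeleton promoters (-0.21, against -0.26) and those of SRF regulators (-0.22, against -0.29) lay nearer the members, with 0 lower in each set. The lowest were Xirp1, an actin-binding protein of striated muscle, at 204 and 72.6 reads (-1.49), Klhl41, which acts in sarcomere assembly, at 232 and 114 (-1.03) and Cav1, caveolin 1, at 663 and 329 (-1.01). The highest were Mypn, the Z-disc protein myopalladin, at 56.6 and 173 (1.61), Myh14, the non-muscle myosin IIC heavy chain, at 181 and 487 (1.43) and Tln2, talin 2, at 98.5 and 222 (1.18).

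The labelled cell type was checked by marker promoters. A peak was present for 8 of 8 fibroblast markers, at 116 to 784 reads with GFP and 79.0 to 615 with Prox1, and for 0 of 6 hepatocyte markers. Of 6 markers of skeletal myoblasts, 3 had a promoter peak, at 64.3 to 129 reads with GFP and 95.8 to 291 with Prox1, and Myf5, Myf6 and Myog had none. Peaks were also found for 5 of 6 epithelial, 4 of 6 endothelial, 2 of 6 haematopoietic and 3 of 6 neural markers. The median log2 difference over these peaks was -0.41 for fibroblast, 0.88 for skeletal myoblast, 0.13 for epithelial, -0.61 for endothelial, -0.23 for haematopoietic and 0.29 for neural markers. The myoblast value rests on 3 peaks. Levels did not single out fibroblasts, since the median with GFP was 218 reads for fibroblast, 333 for endothelial, 383 for haematopoietic and 372 for neural marker peaks. It was lower for epithelial (186) and skeletal myoblast (109) marker peaks. An open promoter is not expression, and the part of other cell types in the results at muscle genes was not tested.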

How the data were processed

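ATAC-seq reads of the 4in1_GFP_OE and 4in1_Prox1_OE libraries were trimmed by the authors with Trimmomatic 0.38, aligned to mm10 with Bowtie2 2.3.4.3, recalibrated for Tn5 insertion bias and filtered with SAMtools 1.10, Picard 2.18.16 and bedtools 2.27.1. The methods name MACS2 2.1.2 for peak calling, whereas a reporting summary lists Genrich, which leaves the tool unclear. Windows were counted with DiffBind 3.4.11, for which the methods refer to that version's vignette. The normalization setting used is not given by name in the sources used here. The deposited table holds, as log2 values, the authors' mean normalized reads per window over both groups and in each group. Its fold change, p-value and FDR columns, and a pair of interval lists called from them, are the authors' own comparison and were not used. Values per library were not analysed here, so depth is unknown and no test, replicate check or interval for a window was made. The closing section uses 95% order-statistic intervals of medians over windows.

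The difference of the group means was computed for all 176680 windows, and windows past 2-fold were counted (Python 3.11.15, pandas 2.3.3, numpy 2.4.6). The counting was tested on simulated data. Windows were annotated with the basic set of GENCODE M21. Of the windows, 176672 are 201 bases wide. The promoter peak is the window with the highest mean concentration within 1 kb of a start site. Percentiles were taken among the windows of the same decile by mean concentration. Named windows were the 6 largest falls, the 6 largest rises and the 3 strongest among members above the median strength, besides every promoter peak and the 3 largest falls and rises of promoters outside the members. Windows named beyond these were chosen after their values were seen. Members and lists were chosen with earlier results of these data known, and the E-box, MEF2 and RefSeq promoter searches, as well as the start sites of all transcripts, were added after the data were seen. CArG box and MEF2 were searched in their usual degenerate form.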

Additional observations from a re-analysis of the deposited data

How the results depend on the processing

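The results depend on where 0 lies, since the median of all windows was -0.42. With that median set to 0, 38 member windows were lower and 39 higher (main values 135 and 22), the median over member windows was -0.18, and the role medians were -0.22 (smooth muscle contractile), -0.20 (general cytoskeleton) and -0.31 (SRF regulators). The striated sarcomere median reversed to 0.086 and that of promoter peaks to 0.11, with 1 promoter peak lower (main value 5). Medians with CArG box, AP-1 and TEAD motifs became -0.44, -0.50 and -0.37. With equal totals over all windows the counts were 39 and 38, the medians -0.19 for all member windows, -0.22, -0.21 and -0.31 for the same 3 roles, and 0.081 (sarcomere) and 0.11 (promoter peaks) reversed, with 1 promoter peak lower. Centred on the strongest 10% of windows, 71 were lower, the medians were -0.34, -0.37 (smooth muscle), -0.36 (cytoskeleton), -0.069 (sarcomere) and -0.040 (promoter peaks), and 1 promoter peak was lower. Centred on promoter windows, 83 were lower, the medians were -0.38, -0.42, -0.41, -0.12 and -0.089 in that order, and 1 promoter peak was lower. A call at 1.5-fold gave 257 lower and 38 higher, and at 3-fold 17 and 10. With 50 kb on each side 247 were lower and 45 higher. Gene bodies alone gave 13 higher and a median of -0.67, and leaving out the weakest 25% of windows gave 12 higher. In the other 33 alternatives counts stayed within 1.5 times and medians within their 95% order-statistic interval. Among them are the start sites of all annotated transcripts, chosen after seeing the data, under which 5 of 36 promoter peaks were lower, with Neb entering (98.1 and 47.2 reads, -1.06) and Mylk leaving. The order-statistic intervals treat windows of the same gene as independent, so a median inside its interval is not shown to be stable. The SRF regulator median counted as unchanged at -0.51 when centred on promoter windows (main value -0.72). No paired analysis was possible because these values are group means, and for the same reason no replicate could be left out. Apart from the construction of the alternatives, the cause of these shifts was not tested.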
